A study of Rattus norvegicus with 232 samples.

Results

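RNA expression in the brain was compared between 6 genetically hypertensive inbred rat strains and 13 other classic strains of a large rat diversity panel. The 6 hypertensive strains were SHR/OlaIpcv (the spontaneously hypertensive rat), SHRSP/A3NCrl (its stroke-prone relative), SS/JrHsd (the Dahl salt-sensitive rat), LH/MavRrrc (the Lyon hypertensive rat), FHH/EurMcwi (the fawn-hooded hypertensive rat) and MWF/Hsd (the Munich Wistar Frömter rat). The 13 other strains were ACI/SegHsd, BN-Lx/Cub, BN/NHsdMcwi, COP/CrCrl, DA/OlaHsd, F344/NHsd, GK/FarMcwi, LEW/SsNHsd, M520/N, PVG/Seac, SR/JrHsd, WAG/RijCrl and WKY/NCrl. These 19 were 19 of the 73 strains in the table used and of the 74 strains in the labels of 232 samples. Membership in a class was taken from what each strain is known for, since the labels state a strain and no blood pressure. All rats were untreated, the labelled tissue was whole brain, and the study's methods, written for an earlier set of the samples, describe young adult males whose brain was divided sagittally with a single side sequenced. By these methods SHR/OlaIpcv and BN-Lx/Cub were kept in Prague, and their brains were shipped in liquid nitrogen. The other classic strains of that set came from commercial suppliers, and their brains were kept in RNAlater. Removal of ribosomal RNA and the sequencer also differed between batches. Strain and these differences in source and handling cannot be told apart here. A male sex label was present for 44 of the 78 samples of these 19 strains. In the table used, the hypertensive class had 32 libraries of 16 animals and the other class had 39 libraries of 38 animals. SHR/OlaIpcv had 18 libraries of 2 animals, SHRSP/A3NCrl and COP/CrCrl had 2 animals each, and the other strains had 3.

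High blood pressure in these strains goes back to several separately bred stocks, SHRSP being derived from SHR, so that strains carry alleles of their own as well as those shared by descent. The brain takes part in setting arterial pressure. Angiotensin II formed in or reaching the brain acts through its type 1 receptor on thirst, vasopressin release and sympathetic outflow, while brainstem and hypothalamic neurons that use catecholamines and neuropeptides set sympathetic tone. Several strains have control strains bred beside them. WKY was derived from the same Wistar stock as SHR, and SR is the salt-resistant line selected alongside SS. The strains are not independent of each other, because SHR and SHRSP, BN and BN-Lx, and SS and SR are related pairs.

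The log2 scale of the deposited table was inferred from its values, and on that reading a difference of 1 stands for a doubling. The strain mean, taken over animals, was the unit of the tests unless stated, since animals of an inbred strain share a genotype. The median over features of the SD between animals of a strain was 0.161, and the median SD between the 13 other strain means was 0.115. The second is an SD of means over 2 or 3 animals, so the values do not compare animals with strains directly. Sequencing depth is unknown, as the table holds no counts. Each of 54 animals lay nearest to another animal of its own labelled strain over 1000 features, which were picked for each animal as those that best separated the remaining strains, its own strain left out. The neuron markers had mean levels of 13.97 to 14.16 in the hypertensive strains and 14.00 to 14.16 in the others. Over the whole table, 5 features held values above 25 in the 19 strains, which no log2 read count can reach, and none of these is described below.

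No feature separated the classes past the threshold. Of 20859 features, 0 had a limma adjusted p under 0.05 (0% of features), and the smallest adjusted p was 0.326. At an unadjusted p under 0.05 there were 865 features with a higher mean in the hypertensive strains (4.15%) and 878 with a lower mean (4.21%), which together made 8.36% of the table. These counts moved with the strains: there were 1086 higher and 1610 lower without BN-Lx, and 1033 and 1614 without SS. They also moved with batch terms: there were 220 and 221 when values of the same 19 strains came from a fit of strain and batch. An exact permutation test over all 27132 ways of labelling 6 of 19 strains gave 1728 features at p under 0.05 and 0 after Benjamini-Hochberg adjustment, with a smallest adjusted p of 0.412. The smallest p that this permutation test can give is 3.69e-05, so a single feature at that floor could not pass the adjustment over 20859 features. Its 0 is therefore no separate support for the limma result. The median difference (hypertensive minus other) was 0.00055, and 5% of features lay below -0.14 and 5% above 0.12. The 95% interval of a difference extended by a median of 0.117 to either side. Genes given below are therefore described by their values, and a small p of a single gene is not a call.

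**Figure D1:**
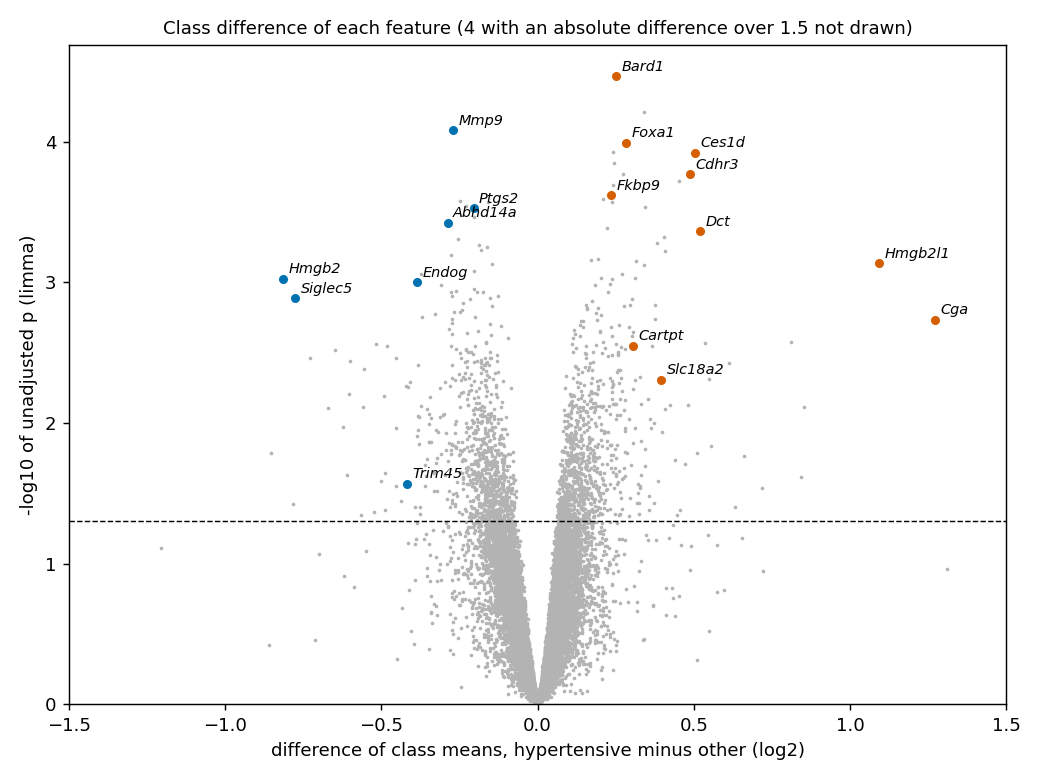
Class difference of every feature on the x axis (log2, hypertensive minus other) against the -log10 of its unadjusted limma p on the y axis, each point 1 feature; the dashed line marks p = 0.05 and 4 features beyond 1.5 are not drawn. Bard1 has the smallest p at a difference of 0.25, Hmgb2l1 and Cga lie at 1.09 and 1.27, and no point passes an adjusted p of 0.05.

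A fit that took animals as units, with the strain as a random block, gave 35 features called higher and 17 called lower (limma adjusted p under 0.05), against 0 over strain means. That fit gave every feature the same correlation of 0.147 between animals of a strain. Among its 52 called features the correlation within strains had a median of 0.582, above 0.147 in 48 of them, while the median over all features was 0.133. All 52 also had an unadjusted p under 0.05 over strain means, which come from the same animals and are no separate support. The strain is the unit of the tests here, so these 52 are not taken as class differences. They included Cdhr3, Fkbp9, Creg1, Mylk, Bard1, Dnah3, Dnah6, Hmgb2l1, Hmgb2, Siglec5 and Trim45, which are described below by their values.

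Complete separation was absent. In 0 of 20859 features did all 6 hypertensive strain means lie on one side of all 13 others. At least 4 of the 6 lay above all 13 others in 117 features (0.561%), and at least 4 lay below in 99 (0.475%). Exactly 5 of 6 lay above in 17 features and below in 17. Single strains accounted for most of the features outside the range of the 13: 4446 had a single hypertensive strain above it and 4110 a single one below. LH/MavRrrc was outside in 16.4% of features, SHRSP/A3NCrl in 15.3%, SHR/OlaIpcv in 14.6%, SS/JrHsd in 13.6%, MWF/Hsd in 12.7% and FHH/EurMcwi in 10.0%. Any strain set against 13 others falls outside their range in part of the features, and the share due to chance was not computed. A distance of 1 or more beyond the 13 others was rare, at 1 to 4 features a strain. SHR and SHRSP were outside together, on the same side, in 932 features, the most of the 15 pairs. The pair with the fewest was MWF and SS, at 164. LH and SHRSP followed the related pair with 508, but they were also the strains most often outside the range. The correlation r was taken over features between strain means less the mean of the 19 strains. Subtracting a mean that includes both strains makes r slightly negative for unrelated strains. This r was -0.075 for LH and SHRSP, 0.265 for SHR and SHRSP and -0.264 for MWF and SS. The count of 508 thus does not show that LH and SHRSP deviated alike. Of 4 pairs of related strains, BN and BN-Lx not among them, SHR and SHRSP differed least, by a median of 0.0801 per feature. The medians were 0.106 for SHR and WKY, 0.101 for SHRSP and WKY, and 0.0894 for SS and SR.

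Among genes above the median level of the table, the 12 with the smallest p and a higher mean in the hypertensive strains were Fkbp9, Mylk, Creg1, Ndnf, Galc, Cbln4, Septin10, Armh4, Akirin2, Gpc3, Tmem185b and Synm, with differences of 0.12 to 0.27 and limma adjusted p values of 0.33 to 0.47. Fkbp9, a peptidyl-prolyl isomerase of the endoplasmic reticulum, stood at 10.57 in SHR, 10.71 in SHRSP, 10.75 in SS, 10.68 in LH, 10.54 in FHH and 10.51 in MWF. The 13 others ran from 10.21 in PVG through a median of 10.38 to 10.60 in LEW/SsNHsd, so that SHRSP, SS and LH lay above them all. Its difference was 0.23 (95% interval 0.12 to 0.34, exact permutation p = 0.000553). Mylk, the myosin light chain kinase of smooth muscle contraction, was at 9.74, 9.71, 9.73, 9.67, 9.93 and 9.70 in the same order of strains. Its other strains spanned 9.42 to 9.75 with a median of 9.52, and FHH alone exceeded them. The difference was 0.19 (0.09 to 0.30, exact permutation p = 0.0007).

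Creg1, a secreted glycoprotein of the lysosomal pathway, was even across the class at 9.35, 9.37, 9.32, 9.37, 9.45 and 9.42 (SHR, SHRSP, SS, LH, FHH, MWF). The others ran from 8.81 in WKY through 9.09 to 9.38 in BN/NHsdMcwi, a difference of 0.27 (0.13 to 0.41, exact permutation p = 0.0028). WKY, the control strain of SHR, thus had the lowest level of all 19. Galc, the lysosomal galactosylceramidase needed for myelin turnover, lay between 9.89 in FHH and 9.96 in MWF, and 4 of the 6 were above the highest other value of 9.91 in ACI, with a difference of 0.15 (0.07 to 0.24). Cbln4, a secreted synaptic organizer, had hypertensive means of 8.65 to 8.74 against 8.34 to 8.72, and Ndnf, a secreted neurotrophic factor, 10.14 to 10.41 against 9.83 to 10.25. For both, the lowest of the 19 strains was SR, the control strain of SS. Tmem185b was above all 13 others in every hypertensive strain but LH, at 9.80, with 9.87 to 9.95 in the 5 and a highest other value of 9.86.

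Bard1, the partner of Brca1 in its ubiquitin ligase, had the smallest limma p of the table although its level was below the median of the table, 8.32. It spans chromosome 9 from 72616070 to 72694553 in the deposited transcriptome annotation. SHR was at 6.09, SHRSP at 6.12, SS at 5.84, LH at 6.01, FHH at 5.99 and MWF at 6.05. The 13 others ran from 5.64 in F344/NHsd through 5.76 to 5.93 in WKY, so that only SS fell within their range. The difference was 0.25 (0.15 to 0.35, exact permutation p = 0.000147, limma adjusted p = 0.326). Il2rg, the common gamma chain of interleukin receptors, had the smallest exact permutation p of these, 7.37e-05, with 5.23, 5.08, 4.98, 5.04, 4.93 and 4.99 against 4.51 to 4.94. Here FHH was the strain inside the range, at 4.93. Fndc3c1 (2.48 to 2.93 against 2.23 to 2.62) and Trim43a (2.91 to 3.39 against 2.80 to 2.98) likewise had 5 of 6 strains above the others, at lower levels. In the reconstructed gene table Trim43a had 2 features. The one with the higher mean differed by 0.017, and by -0.0018 without the library SHRSP/A3NCrl 1, against 0.24 here.

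On the lower side, the 12 genes above the median level included Ptgs2, Abhd14a, Hinfp, Hddc3, Cckbr, Rpl8, Ryr3, Lss, Unc13b, Mpv17l2 and Prodh1, with differences of -0.29 to -0.10 and limma adjusted p values of 0.33 to 0.47. The difference of Mpv17l2 was -0.23 here but 0.042 in the reconstructed gene table, for the feature with the highest mean of 10 with that symbol. Ptgs2, the inducible cyclooxygenase that makes prostaglandins in forebrain neurons, was at 8.56 in SHR, 8.46 in SHRSP, 8.57 in SS, 8.54 in LH, 8.46 in FHH and 8.73 in MWF. In the other strains it ran from 8.60 in WKY through 8.77 to 8.91 in PVG, and all but MWF lay below them. The difference was -0.21 (-0.30 to -0.11, exact permutation p = 0.000553). It spans chromosome 13 from 62163494 to 62172501.

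Unc13b, a synaptic vesicle priming protein, was at 10.60, 10.59, 10.57, 10.59, 10.53 and 10.63 (SHR, SHRSP, SS, LH, FHH, MWF) against 10.62 to 10.75, a difference of -0.10 (-0.15 to -0.04, exact permutation p = 0.000111). Ryr3, a calcium release channel of the endoplasmic reticulum, was at 11.27, 11.10, 11.17, 11.16, 11.16 and 11.22 against 11.23 to 11.42, and SHR alone was inside the range. Cckbr, the cholecystokinin B receptor, was at 8.17 to 8.47 against 8.23 to 8.69. Lss, the lanosterol synthase of cholesterol formation, was at 10.35 in SHRSP and at 10.61 to 10.74 in 4 more strains, below the lowest other value of 10.77. In SS Lss was within the range of the others, near its upper end. Rpl8, a ribosomal protein with many processed copies in mammalian genomes, lay at 12.02 to 12.58 against 12.23 to 12.72, and its reads can be shared with such copies. Its SD between animals of a strain was 0.23. SHRSP had animals at 12.56 and 11.70, and the lowest animals of MWF and FHH were at 11.64 and 11.9. Animals of SHR, SS and LH lay closer together. Those low animals were also the lowest of their strains in Mpv17l2 (8.08, 8.07 and 8.20 in SHRSP, MWF and FHH). The same held for Adra2c (7.94, 7.87 and 7.95) and Endog (6.25, 6.56 and 6.71). The low MWF and FHH animals were both sequenced in batch 15, and no other library of their strains was. LH had no library of that batch, and the low SHRSP animal was in batch 8. A shift shared by whole libraries or by a batch was not tested.

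Mmp9, a gelatinase of matrix and synapse remodelling, had the third smallest limma p of the table. It stood at 6.22 in SHR, 6.29 in SHRSP, 6.40 in SS, 5.97 in LH, 6.18 in FHH and 6.19 in MWF, and the others ran from 6.29 in DA through 6.48 to 6.69 in SR. SS was the strain inside the range, and it lay below its own control strain SR, which was the highest of all. The difference was -0.27 (-0.38 to -0.15, exact permutation p = 0.000147). Sstr4, a somatostatin receptor, also had 5 of 6 strains below the others, at 7.85 to 7.95 with SS at 8.13 and others from 8.02 to 8.26. Trpv1, the capsaicin receptor, had 5.01 to 5.47 against 5.39 to 5.86, with MWF inside.

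**Figure D2:**
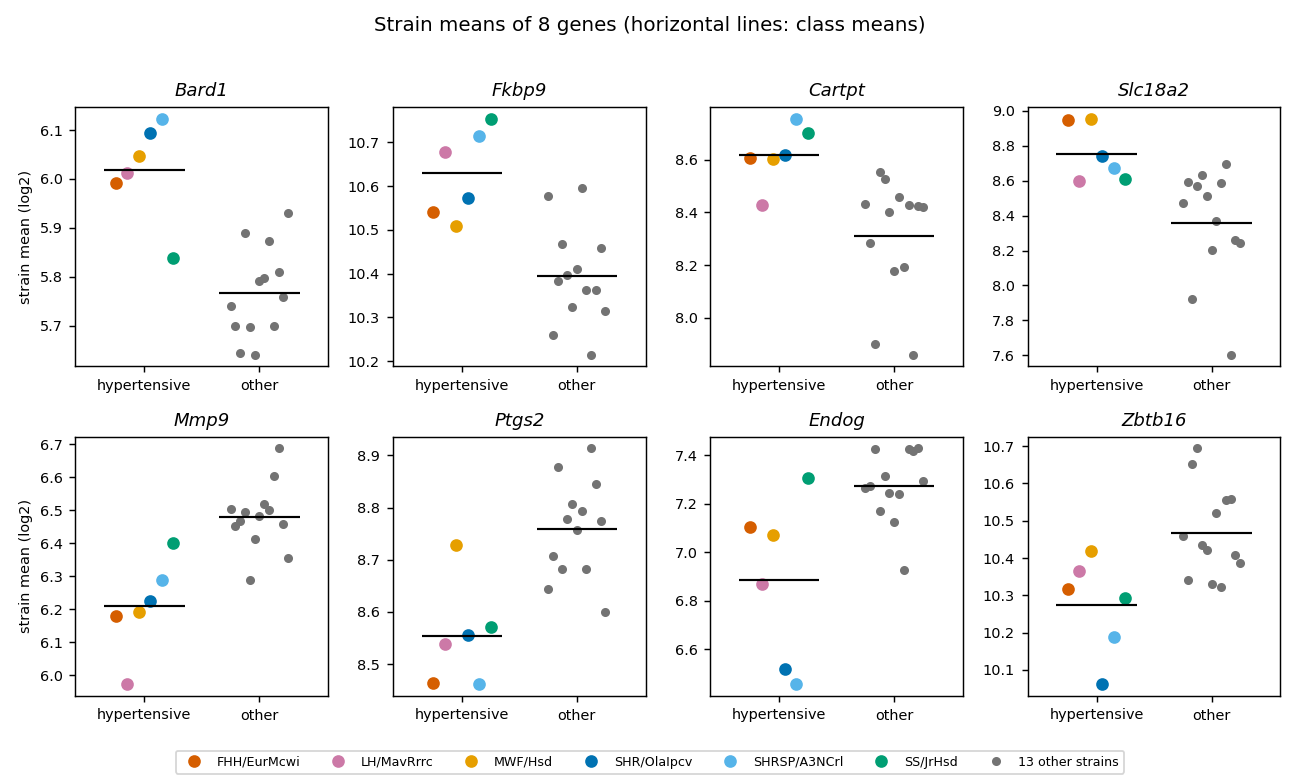
Strain means of 8 genes (y axis, log2) by class, with 1 coloured point for each hypertensive strain, 1 grey point for each other strain and a horizontal line at the class mean. Bard1, Fkbp9, Cartpt and Slc18a2 (upper row) are higher and Mmp9, Ptgs2, Endog and Zbtb16 (lower row) lower in the hypertensive class, and in each gene some strains of the classes overlap.

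The renin-angiotensin system showed no called member. Of 15 measured genes of 16 listed, 2 had an unadjusted p under 0.05 and a higher mean and 1 a lower mean, beside 4.15% and 4.21% of all features, and the median difference was 0.041 against 0.00055 over all features. Agt, the angiotensinogen precursor made mainly by astrocytes, was at 12.19 to 12.62 in the hypertensive strains and 12.13 to 12.73 in the others. Ace, the converting enzyme, ran from 9.83 to 10.21 against 9.84 to 10.26. Neither had an unadjusted limma p under 0.05. Log2 levels are not per length, so that the order of genes is not an order of transcript numbers.

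The receptors and peptidases of the system held the smaller p values. Agtr1a, the type 1 angiotensin receptor, was at 4.93 in SHR, 4.84 in SHRSP, 4.90 in SS, 4.38 in LH, 4.59 in FHH and 4.55 in MWF, and the others ran from 4.22 in WAG through 4.52 to 4.79 in GK. SHR, SHRSP and SS were thus above all 13, and the other 3 were inside. The difference was 0.19 (-0.00 to 0.37, exact permutation p = 0.07). It was 0.40 among the 11 strains of the early sequencing batches, which hold SHR, SHRSP and SS, and -0.06 among the 8 of the late batches, which hold LH, FHH and MWF (interaction unadjusted limma p = 0.0066, adjusted p = 0.633), and strain and batch set cannot be told apart here. Agtr2, the type 2 receptor, was at 5.69, 5.40, 5.500, 5.58, 5.55 and 5.87 (SHR, SHRSP, SS, LH, FHH, MWF) against 5.19 to 5.72. Enpep, which turns angiotensin II into angiotensin III, was at 8.26, 8.21, 8.09, 7.84, 7.98 and 8.04 against 7.59 to 8.11. Mas1, the receptor of angiotensin-(1-7), was lower by 0.14 (interval -0.27 to -0.01), at 7.77 to 8.03 in 5 strains with SHR at 8.23, against 7.89 to 8.26, but its difference was -0.019 in the reconstructed gene table. That of Enpep was 0.24 in the early batch set and 0.05 in the late one. Limma adjusted p values of these 4 were 0.55 to 0.59.

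The natriuretic peptide list had 7 measured members of 8 and a median difference of 0.039. Npr3, the clearance receptor, was the single member of 7 with an unadjusted p under 0.05, beside 8.36% of all features, at 9.00, 9.26, 9.08, 9.29, 9.15 and 9.16 against 8.85 to 9.26 and with a difference of 0.12 (0.00 to 0.24), 0.04 in the early batch set and 0.18 in the late one. Nppa, the atrial peptide, stood at 5.46 to 5.92 against 5.43 to 6.19, and Nppc, the C-type peptide, at 5.80 to 6.11 against 5.68 to 6.09. The guanylyl cyclase receptors Npr1 (8.97 to 9.18 against 8.73 to 9.17) and Npr2 (9.38 to 9.64 against 9.45 to 9.70), and the processing enzymes Corin (4.08 to 4.53 against 4.02 to 4.48) and Furin (9.46 to 9.90 against 9.50 to 10.13), overlapped between the classes throughout. Vasopressin and oxytocin varied more between animals than between classes. Avp was at 6.69 to 7.52 against 6.61 to 7.62 with an SD of 0.56 between animals of a strain, and Oxt at 6.30 to 7.097 against 5.98 to 7.59 with an SD of 0.60.

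Catecholamine genes were represented by all 20 listed members, 1 with an unadjusted p under 0.05 in each direction, near the 4.15% and 4.21% of all features. Slc18a2, the vesicular monoamine transporter that loads catecholamines, serotonin and histamine into vesicles, was at 8.74 in SHR, 8.67 in SHRSP, 8.61 in SS, 8.60 in LH, 8.95 in FHH and 8.95 in MWF. The others ran from 7.60 in SR through 8.47 to 8.70 in PVG, so that SHR, FHH and MWF were above them all. The difference was 0.40 (0.13 to 0.66, exact permutation p = 0.00859), the largest of the 20, beside an SD of 0.36 between animals. Adra2c, a presynaptic alpha-2 receptor that limits noradrenaline release, was at 8.20, 8.15, 8.49, 7.97, 8.29 and 8.17 against 8.18 to 8.81. The difference was -0.22 (-0.39 to -0.05), beside an SD of 0.25 between animals. SR had the lowest Slc18a2 and the highest Adra2c of the 19 strains. Genes of serotonin neurons, which also use Slc18a2, were added after their values were seen. Tph2, which makes serotonin in the brain, was at 8.60, 8.63, 8.11, 8.40, 8.98 and 8.92 (SHR, SHRSP, SS, LH, FHH, MWF) against 7.38 in SR to 8.89 in PVG, a difference of 0.55 (0.19 to 0.91) beside an SD of 0.63 between animals. Slc6a4, the serotonin transporter, was at 6.75 to 7.35 against 5.71 to 7.48, a difference of 0.51 (0.10 to 0.92) with an SD of 0.71. The part of serotonin neurons in the Slc18a2 values was not tested. Hdc, which makes histamine and was named after its values were seen, was higher by 0.38 (0.19 to 0.58), at 5.93 to 6.44 against 5.49 to 6.07.

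Of 24 measured blood pressure neuropeptides and receptors among 26 listed, 4 had an unadjusted p under 0.05 with a higher mean, 0 with a lower mean and 0 an adjusted p under 0.05, beside 4.15% and 4.21% of all features at an unadjusted p under 0.05. The median difference was 0.058. Of 8 hypothalamus markers 6 had a higher mean, 2 of them under 0.05 (Pmch by 0.22 and Sim1 by 0.18), and the list's mean level was 6.99 to 7.31 against 6.73 to 7.28. Their part in the neuropeptide values was not tested. Cartpt, the precursor of the CART peptides of hypothalamus and brainstem, lay at 8.62 in SHR, 8.75 in SHRSP, 8.70 in SS, 8.43 in LH, 8.60 in FHH and 8.60 in MWF. Its other strains ran from 7.86 in SR through 8.42 to 8.55 in COP, and LH was the strain inside that range. The difference was 0.31 (0.12 to 0.49, exact permutation p = 0.00527). It spans chromosome 2 from 31255098 to 31257452. Adcyap1, the precursor of PACAP, was at 9.30 to 9.53 against 9.11 to 9.46 with 4 strains above all others. Calca, which encodes calcitonin and CGRP, was at 5.66 to 6.21 against 5.42 to 5.98. Pomc, the melanocortin precursor, was at 5.12 to 5.39 in 5 strains and 6.12 in SS against 4.83 to 5.43, and its difference of 0.28 went to 0.14 when SS was left out. The 3 SS animals were at 6.46, 5.96 and 5.95.

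Salt handling and vascular lists gave small differences, and their counts at an unadjusted p under 0.05 stand beside 4.15% of all features higher and 4.21% lower. In the mineralocorticoid and sodium transport list, 28 of 29 genes were measured, 3 higher and 0 lower under 0.05, and the median difference was 0.012. Atp1b3 and Atp1b1, beta subunits of the sodium pump, were at 11.93 to 12.12 against 11.79 to 11.98 and at 15.27 to 15.44 against 15.13 to 15.37, with differences of 0.11 and 0.09, and for Atp1b3 all but FHH lay above the others. Stk39, the kinase that activates sodium-chloride cotransporters, differed by 0.10. Of 6 measured endothelin genes, 2 were higher and 0 lower under 0.05. Edn3, the peptide endothelin 3, was at 7.39 to 7.59 against 7.16 to 7.55 (difference 0.15, exact permutation p = 0.0045, but 0.026 in the v6 Ensembl table) and Ednrb, the type B receptor, at 12.42 to 12.82 against 12.13 to 12.67 (0.18, exact permutation p = 0.0136, with 0.08 in the early and 0.28 in the late batches). The list's median difference was 0.077. In the nitric oxide list (13 genes, 1 higher and 1 lower under 0.05, median -0.0063) Pde5a, which degrades cyclic GMP, differed by 0.18 and Arg1, arginase, by -0.16. Among 22 eicosanoid genes Ptgs2 was the single member under 0.05 and the median was 7.6e-05. Among 26 oxidase and antioxidant genes (2 higher and 1 lower under 0.05, median 0.014), Sod3, the extracellular superoxide dismutase, and Cat, catalase, differed by 0.13 each and Nqo1, a quinone reductase, by -0.11. Of 14 measured inflammatory mediators (1 higher and 0 lower under 0.05, median -0.0024) Il1b was at 3.03 to 3.23 against 2.86 to 3.14. No member of these lists had a limma adjusted p under 0.32.

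**Figure D3:**
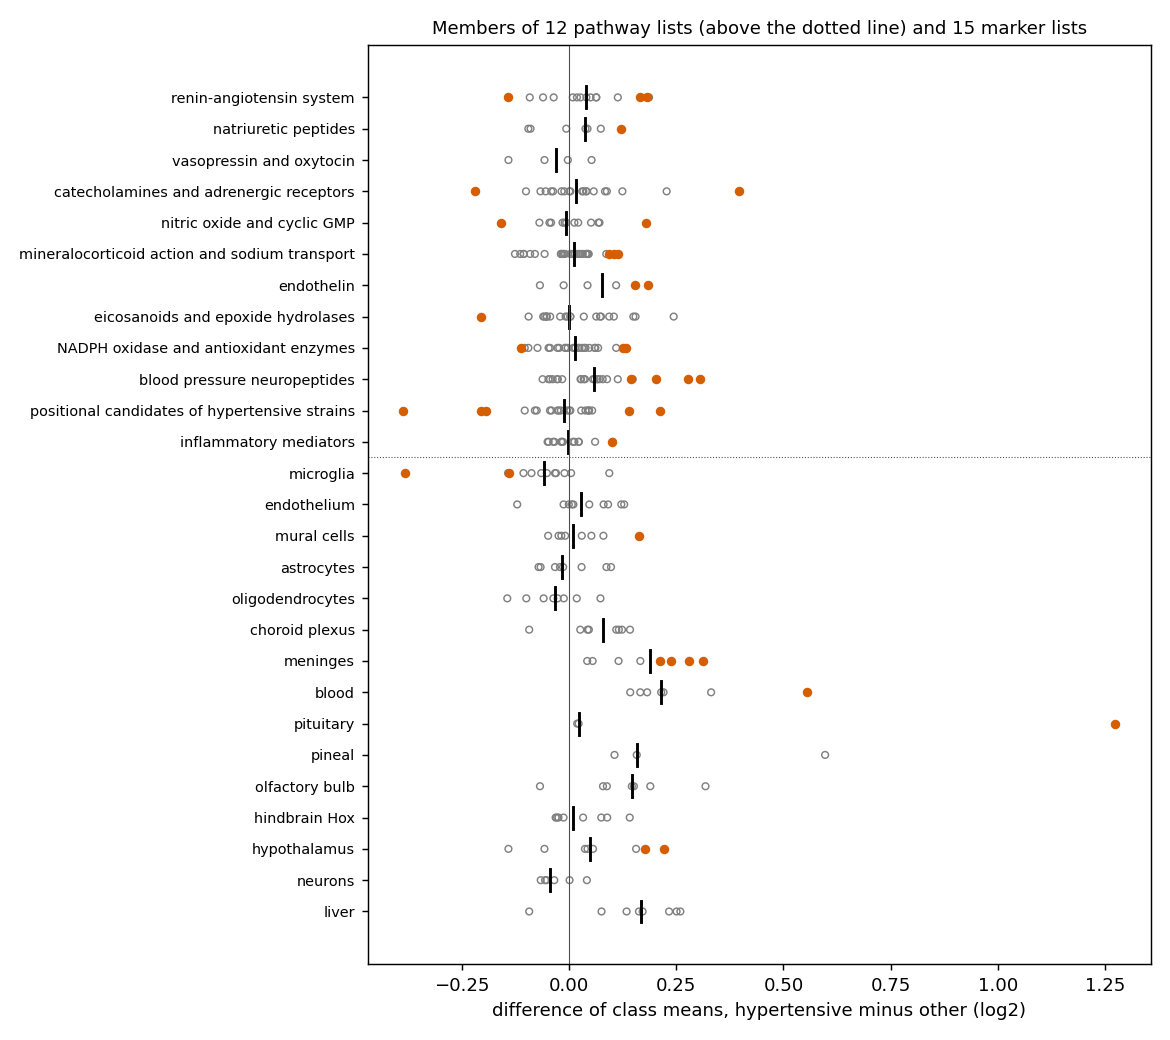
Class difference of each measured member (x axis, log2, hypertensive minus other) of 12 pathway lists and 15 cell type or region marker lists (rows); filled points have an unadjusted limma p under 0.05, open points do not, and the black bar is the list's median. Medians of the pathway lists lie between -0.030 and 0.077, and among the markers meninges (0.190) and blood (0.215) stand farthest to the right.

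Genes that earlier work had placed at blood pressure, heart or kidney loci of single hypertensive strains were read in the strain concerned. All 22 were measured, 2 with an unadjusted p under 0.05 and a higher mean in the class and 3 with a lower one, beside 4.15% and 4.21% of all features. Endog, a mitochondrial endonuclease and a candidate for cardiac mass in SHR, spans chromosome 3 from 13449113 to 13451715. It was lowest in SHRSP at 6.46 and SHR at 6.52, with LH at 6.87, MWF at 7.07, FHH at 7.103 and SS at 7.30, while the others ran from 6.93 in M520 through 7.27 to 7.43 in WAG. All 4 animals of SHR and SHRSP were below 6.7 (6.60 and 6.44, and 6.66 and 6.25), as were 1 of the 3 LH animals at 6.57 and 1 of the 3 MWF animals at 6.56. The class difference was -0.39 (-0.60 to -0.18, exact permutation p = 0.00287), between -0.47 and -0.30 with any single strain left out. It was -0.50 in the early sequencing batches, which hold SHR and SHRSP, and -0.25 in the late ones. Zbtb16, a zinc finger transcription factor and an SHR candidate for cardiac and metabolic traits, had its lowest level of the 19 strains in SHR, at 10.06. SHRSP followed at 10.19, SS was at 10.29, FHH at 10.32, LH at 10.36 and MWF at 10.42, and the others ran from 10.32 to 10.69. The difference was -0.19 (-0.32 to -0.07, exact permutation p = 0.0045), with -0.27 in the early batches and -0.09 in the late ones.

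Other candidates were compared in their own strain with the median of the other 18. Cd36, the fatty acid transporter mutated in SHR, was at 3.67 in SHR against a median of 3.66 over the 18 other strains. Ephx2, the soluble epoxide hydrolase that inactivates epoxyeicosatrienoic acids, had a wide range over strains, from 7.36 in GK to 8.97 in F344/NHsd. SHR was at 8.72, MWF at 8.78, FHH at 8.64, SHRSP at 8.00, SS at 7.75 and LH at 7.39, so that the hypertensive strains took nearly the whole range. WKY, at 7.65, lay below SHR. Stim1, a calcium sensor and an SHRSP candidate, was at 11.05 in SHRSP, 0.13 below the median of the other 18. Gper1, a membrane estrogen receptor and an SS candidate, was highest of the 19 in SS at 6.36 with a median of 6.07 over the rest. Cyba, the p22phox subunit, was at 7.37 in both SS and SR, the highest levels of the 19. Shroom3, an FHH candidate for the glomerular barrier, was lower in the class by 0.21 (-0.35 to -0.06), but its lowest strain was MWF at 7.34 and FHH was at 7.68. Adamts16, an SS candidate, was higher by 0.14 (0.04 to 0.23), with its highest level in SHR at 5.40, while SS, at 5.23, was ninth of the 19. The other candidates that could be tied to a single strain lay within 0.22 of the median of the other 18 in the strain concerned.

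A few genes outside these lists had larger differences, and they were chosen after their values were seen. Hmgb2, a chromatin protein of dividing cells, was at 6.21 in SHR, 5.88 in SHRSP, 6.91 in SS, 6.36 in LH, 5.74 in FHH and 5.58 in MWF against 5.91 to 7.35 with a median of 7.08. Hmgb2l1, which carries the symbol of a related copy, was at 6.60, 6.73, 5.60, 6.81, 6.90 and 6.95 in the same order against 4.86 to 6.95 with a median of 5.43. The differences were -0.82 (-1.26 to -0.37) for Hmgb2 and 1.09 (0.52 to 1.67) for Hmgb2l1. In the early batches they were -0.62 and 0.67, and in the late ones -1.24 and 1.74. Over the 19 strains the levels ran against each other with Pearson r = -0.917 and Spearman rho = -0.756, and over all 73 strains with r = -0.905 and rho = -0.857, a description over strains that share libraries and quantification. Counts of such near copies can be split between them by the quantification, and neither value is certain on its own. SS was the highest of its class in Hmgb2 and the lowest in Hmgb2l1, and DA and F344/NHsd were apart from the rest of the others in both (Hmgb2 at 5.91 and 5.92, Hmgb2l1 at 6.95 and 6.74).

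Trim45 and Siglec5 fell into separate levels that crossed the classes. Trim45, a ubiquitin ligase, was at 6.90 in LH, 6.95 in FHH, 6.98 in MWF and 7.01 in SS, but at 7.78 in SHR and 7.77 in SHRSP. Of the others, ACI and DA were also at 7.01 and COP at 7.07, BN-Lx was at 7.42, and the remaining 9 ran from 7.79 to 8.01. Among the 8 strains of the late batches its difference was -0.96 (limma adjusted p = 0.00055, 3 hypertensive against 5 others), and among the 11 of the early batches it was -0.04. Siglec5, a sialic acid binding receptor of myeloid cells, was at 5.89, 6.14, 6.26, 6.03 and 5.73 in SHR, SHRSP, SS, LH and MWF, and at 7.06 in FHH. The others reached 7.57 in BN-Lx, with GK at 6.04 and WKY, the control strain of SHR, at 6.18. In the 30 HXB/BXH recombinant strains, which descend from SHR/OlaIpcv and BN-Lx/Cub (7.57), Siglec5 ran from 5.89 to 7.63, with 20 strains nearer SHR and 10 nearer BN-Lx. Hmgb2 in the same strains ran from 5.64 to 7.55, with 18 nearer SHR and 12 nearer BN-Lx. Cdkn1c, a cell cycle inhibitor, was higher in the class by 0.41, at 8.84 in SHR and 8.18 in FHH, and 8 of the 30 recombinant strains were nearer SHR (8.84) and 22 nearer BN-Lx (7.82).

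**Figure D4:**
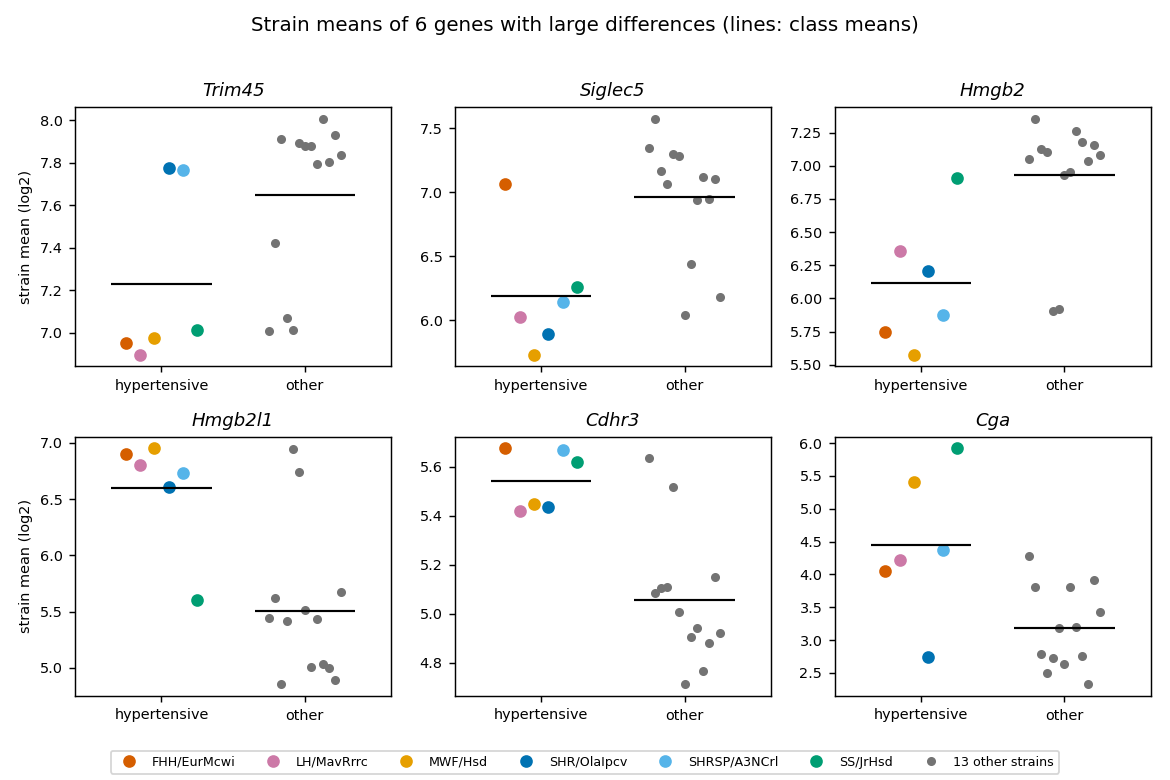
Strain means (y axis, log2) of Trim45, Siglec5, Hmgb2, Hmgb2l1, Cdhr3 and Cga by class, with coloured points for the 6 hypertensive strains, grey points for the 13 others and lines at the class means. In Trim45 the hypertensive strains form a level near 7.0 and a level near 7.8 (SHR and SHRSP), and in each of the other 5 genes the classes overlap.

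Genes of motile cilia, which in brain belong to the ependyma lining the ventricles, were looked at after their values were seen. Cdhr3, a cadherin of ciliated cells, was at 5.44, 5.67, 5.62, 5.42, 5.68 and 5.45 (SHR, SHRSP, SS, LH, FHH, MWF) against 4.71 to 5.64 with a median of 5.01, a difference of 0.49 (0.27 to 0.71, exact permutation p = 0.000921). Dnah3 and Dnah6, axonemal dynein heavy chains, differed by 0.41 and 0.34, and Ak9, an adenylate kinase of flagella, by 0.32. Over the alternatives the difference of Ak9 went down to 0.11. Spag6l, a protein of the axoneme centre, was at 8.04 to 8.20 in the 6 strains against 7.36 to 8.16. By symbol, with families looked at because Dnah3 and Dnah6 had been seen, 11 of 13 Dnah genes had a higher mean in the hypertensive class, 4 with an unadjusted p under 0.05 and 1 lower, and the median difference was 0.156, beside 4.15% and 4.21% of all features in the respective direction. Of 34 Cfap genes 28 were higher, 9 with an unadjusted p under 0.05 and 0 lower, and the median was 0.083. Of 7 radial spoke head genes (Rsph) 5 were higher, 1 under 0.05 in each direction, and of 4 Dnai genes 3 were higher, 2 of them under 0.05. Mean Dnah levels were 7.53 to 7.86 in the hypertensive strains and 7.31 to 7.81 in the others, so the classes overlapped. The choroid plexus markers, of the tissue beside the ependyma, were higher in 7 of 8 with 0 under 0.05, and their part in the cilia values was not tested.

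No marker gene of tissue around or inside the brain sample was called (limma adjusted p under 0.05), and the lists are given by their counts, beside 4.15% of all features higher and 4.21% lower at an unadjusted p under 0.05. Of 8 meningeal genes all 8 had a higher mean in the hypertensive strains, 4 of them with an unadjusted p under 0.05 (Lum, Igf2, Col3a1 and Ogn), and the list's mean level was 10.10 to 10.44 against 9.84 to 10.37. All 7 blood genes had a higher mean, 1 of them under 0.05 (Slc4a1, the red cell anion exchanger, at 7.93 in SHR, 7.53 in SS and 6.55 to 6.80 in the other 4 against 5.84 to 7.32), and the list ran from 10.02 to 11.05 against 9.60 to 10.84. Liver markers were higher in 7 of 8 and olfactory bulb markers in 6 of 7, with 0 under 0.05 in either list. Microglial genes were lower in 10 of 12, 2 of them under 0.05. Tmem119, a microglial marker, was at 8.06, 8.10, 8.55, 8.38, 7.90 and 8.25 (SHR, SHRSP, SS, LH, FHH, MWF) against 8.17 to 9.09, a difference of -0.38 (-0.63 to -0.14), and Tyrobp, the DAP12 adaptor, differed by -0.14. Mean microglial levels were 8.61 to 8.96 against 8.62 to 9.04. Endothelial, mural, astrocyte, oligodendrocyte and neuron lists had medians of -0.043 to 0.029. Cga, the alpha subunit of the pituitary glycoprotein hormones, had the largest difference of the genes named here, 1.27 (0.53 to 2.02), with 2.75 in SHR, 4.37 in SHRSP, 5.92 in SS, 4.22 in LH, 4.06 in FHH and 5.41 in MWF against 2.33 to 4.28. Its SD between animals of a strain was 1.15, and the 3 FHH animals alone were at 6.12, 3.30 and 2.75. Of 8 pituitary markers 3 were measured, without the hormone genes Gh1 and Prl. How far such tissue in a sample bears on the genes above was not tested, and in bulk tissue fewer cells of a type and less RNA per cell cannot be told apart.

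SR/JrHsd, the control strain of SS, often sat at the far end of the other class. Of the 865 features with an unadjusted p under 0.05 and a higher mean in the hypertensive strains, SR was the lowest of the 13 others in 213 (24.6%), and of the 878 with a lower mean it was the highest in 241 (27.4%). Over all features SR was lowest in 13.4% and highest in 13.4%. COP, with 2 animals, was lowest in 17.3% and highest in 22.8% of the same features, against 12.7% and 13.6% over all. Leaving out SR brought the share of features with an unadjusted p under 0.05 from 8.36% to 7.32%, about as leaving out F344/NHsd (7.34%) or BN/NHsdMcwi (7.44%) did. These features were picked for a difference between the classes, which favours extreme others, and the shares carry no test.

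Sequencing batch was compared through 2 sets of strains with both classes in each. The late set, batches 15 to 17, held LH, FHH and MWF with 5 others, and the early set held SHR, SHRSP and SS with 8 others, SHR entering with its libraries of batches 1 to 14, all from 1 animal. The interaction of class with batch set was called for 0 of 20859 features (0%; limma, smallest adjusted p = 0.633, 1584 with an unadjusted p under 0.05). With strain values from a fit of strain and each batch, 2.11% of features had an unadjusted limma p under 0.05, against 8.36% without batch terms. The cause of this drop was not tested. Within the early set 0 features had an adjusted p under 0.05, and within the late set 2 had, Trim45 and Hmgb2l1 (difference 1.74, against 0.67 in the early set). Among the genes named here, Ces1d, a carboxylesterase, differed by 0.76 in the early set and 0.26 in the late set, Abhd14a by -0.14 and -0.49, and Mmp9 by -0.14 and -0.39. Arg1 differed by -0.03 and -0.31, Cat by 0.03 and 0.23, Stk39 by 0.03 and 0.19, Cdkn1c by 0.56 and 0.19, Shroom3 by -0.14 and -0.31, Nqo1 by -0.07 and -0.17, Tyrobp by -0.19 and -0.09, and Pmch by 0.33 and 0.18, all without an interaction past the threshold.

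**Figure D5:**
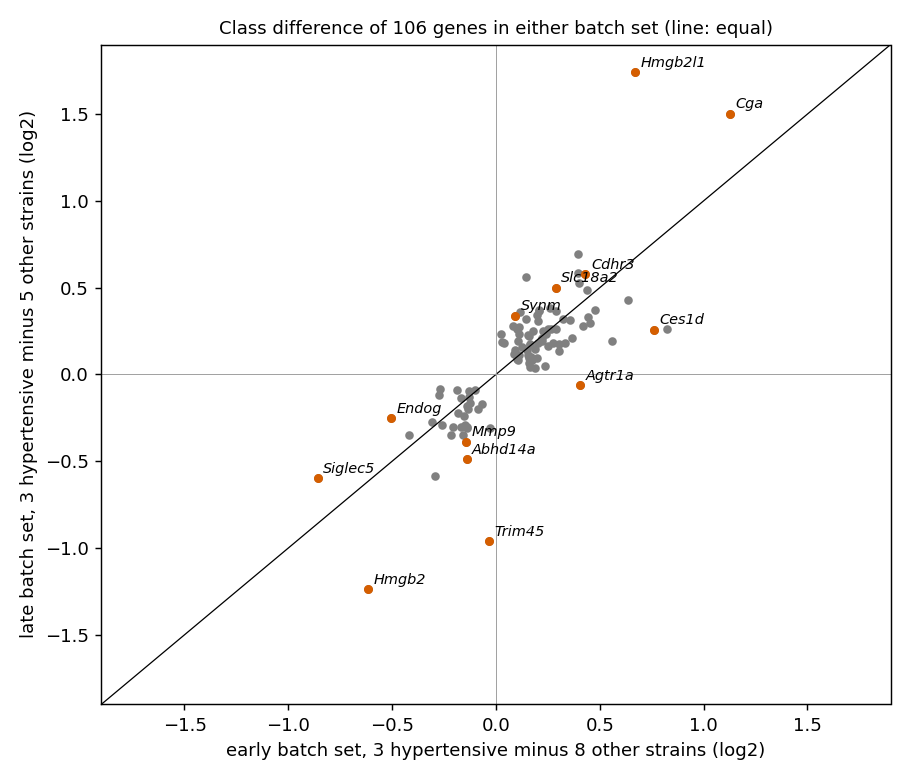
Class difference (log2) of 106 genes in the early batch set on the x axis (3 hypertensive minus 8 other strains) and in the late batch set on the y axis (3 minus 5), with the line of equality; genes were chosen for their difference over both sets, so agreement in sign is partly by choice. Agtr1a lies at 0.40 and -0.06 and Trim45 at -0.04 and -0.96.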

How the data were processed

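The deposited table of RefSeq genes (version v7.1) was used. Its deposited values were read as log2 expression, a scale inferred from the values and from the regularized log that the authors describe for an earlier version. The submitters' processing notes name cutadapt 1.9.1, Bowtie2, HISAT2, StringTie, RSEM and DESeq2. Before that transformation, the earlier version had trimming, removal of ribosomal reads, alignment, isoform quantification and removal of 1 factor of unwanted variation. How the v7.1 table was made, and its genome build, are not given in the sources used here. Strain, animal and batch came from the labels. The batch characteristic was used where it differed from the title, in 17 of 78 samples of the 19 strains, none of which changes its batch set by this choice, while the fit of strain and batch rests on it. Of the columns of per-sample values, 1 matched no single sample and was not used, and 73 spike-in features were left out. Libraries were averaged to animals and animals to strain means. Strains were compared with limma 3.58.1 (R 4.3.3; no trend, Benjamini-Hochberg over all features, threshold 0.05) and by exact two-sided permutation of the class over strains. P-values measure the spread between these strains, which are partly related. Scripts were tested on simulated data.

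The strains and gene lists were chosen with earlier results of these data known, and lists are described by counts and medians with no set test. Genes were named by rule: features past the threshold, filled to 12 in each direction with the smallest p among symbols above the median level; the 4 smallest p of each pathway list; all members of the renin-angiotensin and natriuretic lists. Genes with 5 of 6 strains outside the others, markers, and the genes said to be chosen after their values were seen stand outside this rule. A few genes that the rule names are not reported here. Positions are those of the deposited transcriptome annotation, from the feature of a symbol with the highest mean. Alternatives changed the filter, variance model, test, strain units, averaging, batch terms, replicate block, gene table and strains left out. Depth is unknown, so no counting interval was computed, and the number of strains limits the precision.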

Additional observations from a re-analysis of the deposited data

Results flagged for a closer look

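In a group of 6 values, a strain is marked here when its gap to the nearest value, as a share of the group's range, is above Dixon's 95% critical value. Of 106 genes whose class difference was followed through the alternatives, 10 had such a strain among the 6 hypertensive strains, where chance marks about 1 in 20 groups. Most of the 106 genes were named through these same strain means, so their count cannot be read against that rate. It does not apply at all to genes named for having 5 of 6 strains outside the others, such as Hinfp, Sstr4, Pole3 and Spin2a. SS/JrHsd was the marked strain in 5. It was highest for Hinfp (8.51, nearest 8.36), Sstr4 (8.13, nearest 7.95) and Pomc (6.12, nearest 5.39), and lowest for Pole3 (9.47, nearest 9.84) and Hmgb2l1 (5.60, nearest 6.60). LH/MavRrrc was lowest for Arg1 (7.18, nearest 7.43) and Spin2a (6.58, nearest 6.73). FHH/EurMcwi was highest for Mylk (9.93, nearest 9.74) and lowest for Lrriq3 (4.99, nearest 5.35), a gene of ciliated cells. SHR/OlaIpcv was highest for Abcc9, the sulfonylurea receptor of mural cells (9.32, nearest 9.17). None of the 106 had an interaction of class with batch set past the threshold.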

How the results depend on the processing

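Under 33 of 35 alternatives no feature was called, as over strain means; the early batch set alone, the merged related strains and the replicate block were among them. Animals as units gave 52 calls and the late batch set alone gave 2. Leaving out any single strain gave 0 to 0 calls, with a smallest adjusted p of 0.0995 (without FHH) to 0.644 (without SHRSP). The share of features with an unadjusted p under 0.05 was 5.89% to 12.9% in those fits and 2.11% when strain values came from a fit of strain and batch. Features without overlap between the classes, 0 of 20859, became 5 with related strains merged and 1 from the strain and batch fit. They became 453 of 20859 in the early and 1256 of 20859 in the late set, where fewer strains are compared. With so few strains a part of the features is without overlap by chance, and that share was not computed. In the reconstructed table they were 7 of 84239 (8 without the library SHRSP/A3NCrl 1). There 3181 features were higher and 1637 lower at an unadjusted p under 0.05. With a strain left out, the features without overlap were 0 to 13, the 13 without SS/JrHsd. Alternatives were computed for 106 genes, not for genes described by levels alone, and 101 kept their direction in all alternatives that hold them. In the reconstructed and v6 tables a gene was followed through its feature with the highest mean, and any other features of its symbol were not followed. Reversed were Agtr1a in the late set (-0.062), and in the reconstructed table Mpv17l2 (0.042; 0.059 without that library), Slco3a1 (0.0079), Pole3 (-0.98; -0.96 without it) and Trim43a (-0.0018 without it), and in the v6 Ensembl table Pole3 (-0.30; -0.30 without it); the cause was not tested. Gene differences moved by over 1.5 times for 24 of 106 genes in the early set, 29 in the late set, 31 of 98 in the reconstructed table, 10 of 99 in the v6 table, 5 of 106 in the strain and batch fit and 0 to 1 with a strain left out. The replicate block left 0 calls (smallest adjusted p = 0.322). Animals of different strains with the same number had a median correlation of 0.00295 (-0.721 to 0.665 over 442 pairs), which shows no pairing by number over all strains together. In the late set the animal number partly follows the batch, and pairs within that set were not examined apart. The table used holds no library SHRSP/A3NCrl 1, so leaving it out there was not run. It was left out of the other tables instead, and this and the alternatives for features without overlap were chosen after seeing the data.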

Other observations

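The strains BDIX/NemOdaMcwi, BUF/MnaMcwi and LE/Stm, which belong to neither class, had Bard1 at 5.84, 6.10 and 5.79, Cartpt at 8.11, 8.67 and 7.89, Slc18a2 at 7.61, 8.45 and 8.31, Mmp9 at 6.66, 6.33 and 6.54, and Endog at 7.53, 7.01 and 7.05. The value of BUF, from 1 library of 1 animal, thus lay above all 13 others for Bard1 and Cartpt. Cga, the pituitary hormone subunit, was at 6.79 in BUF, above all 19 strains. Ces1d, a carboxylesterase at 5.67 to 6.44 in the hypertensive and 5.11 to 5.77 in the other strains, was at 11.92 in LE/Stm, of which the table used holds 1 library; the other LE/Stm libraries in the labels were not used here. By symbol, 14933 of the 20859 features could be placed on 1 chromosome, and the rest are left out of the following counts. Among chromosomes, the share of features with an unadjusted p under 0.05 ran from 6.32% on chromosome 17 to 10.5% on chromosome 16, apart from 7 features of chromosome Y with 0. On chromosome 2, 71 such features were higher and 31 lower in the hypertensive strains, and on chromosome 12 there were 11 higher and 35 lower. Neighbouring genes of inbred strains share haplotypes and are not independent, and no test was made.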
